A study of Drosophila melanogaster with 2 samples.

Results

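The genes *neuralized* (*neur*), *scabrous* (*sca*) and *miranda* (*mira*) act in Notch signalling and in asymmetric cell division, and their transcripts were compared between sensory organ precursors (SOPs, also called pI cells) and epithelial cells of the *Drosophila* notum. They are 3 genes, each represented here by 1 feature of an oligonucleotide array of 15744 features, of which 15729 had a value on both arrays. The members were picked by their ratio in this comparison, so their values are a description, no test was made on them, and the ratios cannot serve as support for their own direction.

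Pupae of the genotype *neur*>mCD8::GFP, 16 h after puparium formation (APF), provided both cell populations. In these animals the *neuralized* p72-Gal4 driver places a membrane GFP in SOPs and in their progeny, so every animal and both groups carry the driver and the reporter. Circles around fluorescent cells were laser-cut from ethanol-fixed tissue, with some space left between laser and cell. They gave the SOP sample of around 1000 cells, in which tissue next to the SOPs may be included. An equivalent surface without fluorescence gave the epithelial sample. By quantitative RT-PCR the study found transcripts of *gfp* and of the SOP gene *sens* higher in SOPs, but it still detected *gfp* in the epithelial sample. It proposes, as possibilities, that some faint SOPs were included or that the driver leaked weakly. Nota of many animals were pooled, the RNA was amplified by repeated *in vitro* transcription, and the samples were hybridized together on 2 two-colour arrays, with SOPs labelled in Cy3 on the first of them (array 1) and in Cy5 on the other (array 2). Whether separate extracts were used for each array is not given in the sources used here, and the spread between arrays may be technical. In cells collected this way, more transcript per cell and a different share of cells of a type in the sample cannot be told apart.

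In the notum, each bristle organ starts from a cell cluster in which every cell can become the SOP. Signalling between neighbours through the receptor Notch restricts this fate to a single cell, which then divides asymmetrically and gives daughters that again differ in Notch activity. *neur* encodes an E3 ubiquitin ligase that acts in the signal-sending cell, where it drives endocytosis of the Notch ligand, and its protein is inherited by only one daughter of the SOP. *sca* encodes a secreted fibrinogen-related glycoprotein that takes part in lateral inhibition and in the spacing of precursors. *mira* encodes a coiled-coil adaptor that, in dividing neuroblasts, carries fate determinants such as Prospero and Brat to the basal cortex and so into a single daughter cell. In the RefSeq gene table of Release 6, *sca* lies on chromosome arm 2R with 2 transcripts, *mira* on 3R with 3 and *neur* on 3R with 5. The sources used here do not tell which of these transcripts an oligonucleotide reads.

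The gene annotation used here names a single gene for 67 features, and none of the 3 genes is among them. Each gene was therefore tied to a feature through the SOP over epithelial ratio listed for it in the study: the arithmetic mean of the feature's linear ratios had to equal the listed ratio within the rounding of the deposited log2 values, 0.005 on each array. This ratio was held by 1 feature for *sca* (feature 11334) and by 1 for *neur* (feature 8613). For *mira* it was held by 2, features 23 and 4669. Feature 4669, with log2 ratios of 2.74 and 1.95, is also the only feature that holds the ratio of *vvl*, which leaves feature 23 for *mira*. Were the 2 exchanged, the mean log2 ratio of *mira* would be 2.35 in place of 2.36. On the log2 scale the tied features lay 0.00226 (*sca*), 0.000222 (*mira*) and 0.000516 (*neur*) from the listed ratios. Features just outside the bound were sought without the repeated positions described below. The nearest for *neur* was 13421 (1.79 on array 1 and 0.67 on array 2, distance 0.00527) and that for *sca* was 5402 (3.12 and 1.76, distance 0.00655). For *mira* the nearest was 8165 (2.65 and 1.84), much farther off at 0.0945. With a tolerance of 0.01, again without the repeated positions, the ratio of *neur* would be held by 3 features, and those of *sca* and *mira* by 2 each. The names below thus stand for features tied by ratio. Among the features so sought outside the bound, a competing one came closest for *neur*. Only *mira* had another feature within the bound, and it rests on the assignment of 4669 to *vvl*.

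For *sca*, the secreted regulator, array 1 gave a log2 ratio of 2.70 and array 2 one of 2.50. These correspond to ratios of 6.50 and 5.66, and the mean of the log2 ratios was 2.60 ± 0.14 (SD, n = 2 arrays), or 6.06-fold. Both arrays thus placed it far on the side of the SOPs, and its value differed little between them. The difference between its arrays, 0.20, was close to the median difference of 0.21 in size over all features, and 50.6% of the features differed more.

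*mira*, the cargo adaptor of asymmetric division, had 2.70 on array 1 and 2.01 on array 2. The ratios were 6.50 and 4.03, with a mean log2 ratio of 2.36 ± 0.49 (SD, n = 2), or 5.12-fold. Array 1 gave it the same value as *sca*, while array 2 gave a lower one. Its arrays differed by 0.69, more than for the other members, and 5.12% of all features differed more than that.

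*neur*, the ubiquitin ligase, had 1.46 on array 1 and 1.19 on array 2. The ratios were 2.75 and 2.28, and the mean log2 ratio was 1.33 ± 0.19 (SD, n = 2), or 2.51-fold. It was the lowest of the 3 genes on each array, although the cells were recognized by a reporter under the control of *neur*. The SOP sample was cut by the activity of that driver, and the part of this choice of cells in the ratio of *neur* was not tested. Its arrays differed by 0.27, and 38.0% of the features differed more.

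**Figure D1:**
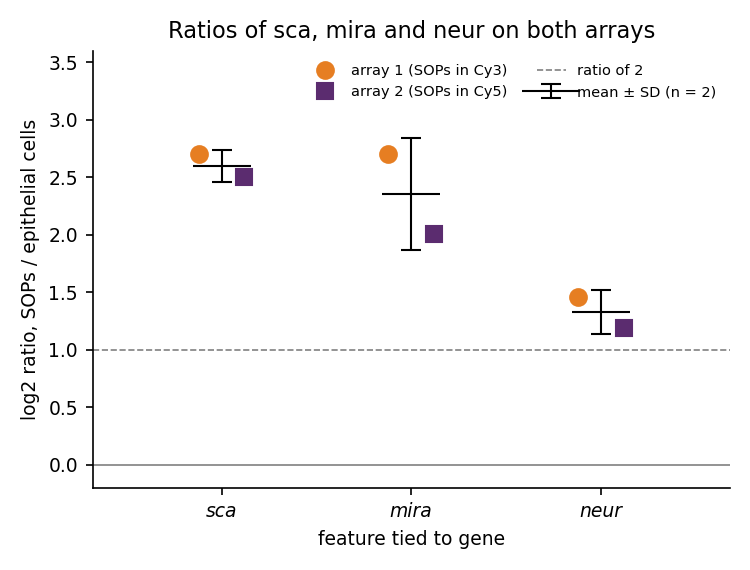
Log2 ratio of SOPs over epithelial cells (vertical axis) of the features tied to *sca*, *mira* and *neur*, with array 1 as circles, array 2 as squares, and the mean ± SD of the 2 arrays in black. All values lie above the dashed line at a ratio of 2, array 1 is the higher one for each gene, and *mira* has the widest spread (SD 0.49).

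All 3 genes had a ratio of 2 or more on both arrays. A mean ratio of 2 or more was found for 155 features, 0.985% of those measured on both arrays, and a ratio of 2 or more on each array for 70 features, or 0.445%. In the other direction a mean ratio of 0.5 or less was found for 267 features (1.7%), and no member was among them. This number fell to 73 without the repeated positions described below, to 169 with the arithmetic mean of the linear ratios, to 168 on array 2 alone and to 124 with the criterion on each array. The list from which the genes come holds such ratios only, so nothing is read from this count.

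The order of the mean log2 ratios was *sca*, *mira*, *neur*. *sca* exceeded *mira* by 0.00 on array 1 and 0.49 on array 2, a mean difference of 0.25 ± 0.35 (SD, n = 2), which is smaller than its spread, so these neighbours in the order were not separated. *mira* exceeded *neur* by 1.24 and 0.82 on the log2 scale, a mean difference of 1.03 ± 0.30 (SD, n = 2), and the values of the genes did not overlap between arrays. *sca* exceeded *neur* by 1.24 and 1.31, with 1.28 ± 0.05 (SD, n = 2). These are differences between enrichments in SOPs and not between transcript levels, since an array ratio does not set the abundance of a gene against that of another. With 2 arrays no exact test can pass 0.05, and none was made.

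Every member was higher on array 1 than on array 2. This holds for many features: of the 117 with a mean ratio of 2 or more outside the repeated positions, 98 were higher on array 1. In this set the median difference between arrays was 0.39 in size, and 39 features differed by no more than *sca*, 46 by no more than *neur* and 86 by no more than *mira*. Array 1 was also the wider one, with a median absolute deviation (MAD, the median distance from the array's median) of 0.19 against 0.17. Counted in MADs of its own array, *sca* lay 14.3 above the median on array 1 and 14.7 on array 2, so that its order of arrays turned. *mira* lay 14.3 and 11.8 MADs above and *neur* 7.74 and 7.0, and both stayed higher on array 1 in this unit. The SDs over features, 0.525 on array 1 and 0.391 on array 2, lay farther apart than the MADs, so the order of arrays can change with the unit. The difference between the arrays divided by 2, in which any effect of the dyes cannot be told apart from other differences between the arrays, was 0.10 for *sca*, 0.345 for *mira* and 0.135 for *neur*, against means of 2.60, 2.36 and 1.33.

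**Figure D2:**
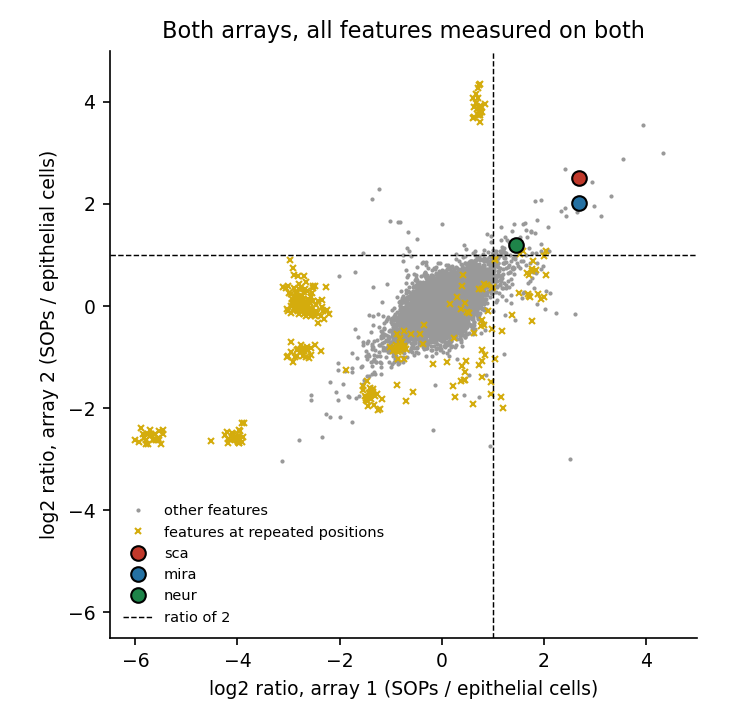
Log2 ratios on array 1 (horizontal axis) and array 2 (vertical axis) of the 15729 features measured on both, with *sca*, *mira* and *neur* as large circles and the features at repeated positions as crosses. The 3 genes lie in the upper right, past a ratio of 2 (dashed lines) on both arrays, and *neur* is nearest to the bulk of features.

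By the mean of both arrays, *sca* had rank 6 among the 15729 features, *mira* rank 16 and *neur* rank 73, where rank 1 is the highest ratio in SOPs. With the arithmetic mean of the linear ratios, the measure used to tie the features, these ranks were 30, 35 and 88. On array 1, *sca* and *mira* shared rank 9 and *neur* had rank 85. On array 2 the ranks were 29, 36 and 77. On array 2, *sca* and *mira* thus ranked lower than on array 1, and *neur* higher. The ranks include a set of spots seen all over the table. Taken as 24 blocks of 656 features, a length inferred from the ratios, the table has 13 such repeated positions. At these, the median over the blocks exceeded 0.5 in size (log2) on at least 1 array. Single features there need not be strong on both arrays, and no column says what these 312 features are. None of the members lies at such a position, but 24 of these features were above each of the 3 genes on array 2. Without them the ranks on array 2 were 5 for *sca*, 12 for *mira* and 53 for *neur*, and those by the mean were 6, 10 and 45. On array 1 they were then 9 for *sca* and *mira* and 66 for *neur*. In this set *sca* thus ranked higher on array 2 than on array 1, while *mira* still ranked lower and *neur* higher. Only 3 features had values on both arrays as high as those of *sca* or higher, 6 for *mira* and 31 for *neur*, and these numbers were the same without the repeated positions. The order *sca*, *mira*, *neur* was kept on the mean in each setting, and on array 1 alone *sca* and *mira* were tied.

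**Figure D3:**
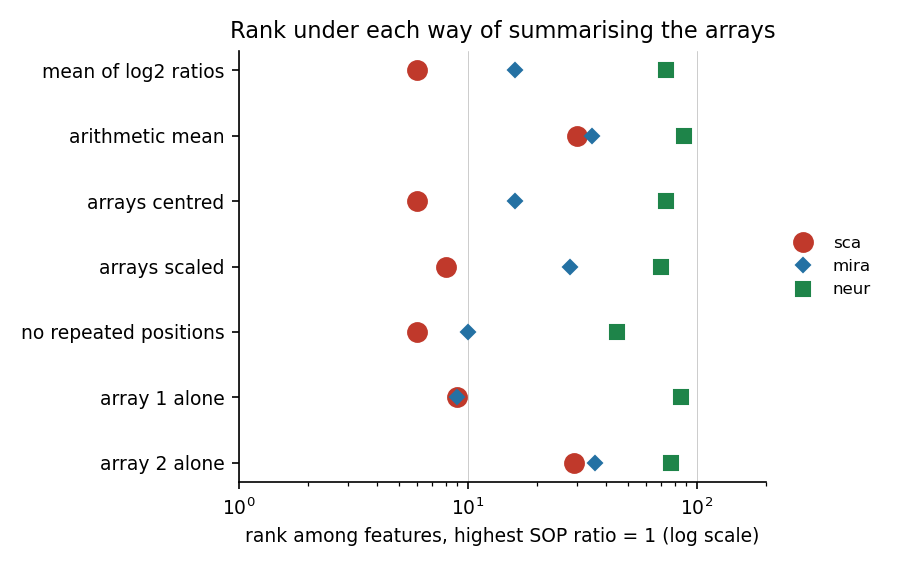
Rank of each gene among all features (horizontal axis, log scale, rank 1 the highest SOP ratio) under 7 ways of summarising the arrays. *neur* moved between 45 and 88, *sca* between 6 and 30 and *mira* between 9 and 36, and on array 1 alone *sca* and *mira* coincide.

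The surroundings of the 3 features in the table did not share their ratios. Among the 24 features nearest to *sca* in table order, 12 on each side, the median log2 ratio was 0.115 on array 1 and -0.075 on array 2, and the highest mean was 0.45. For *mira* the medians were -0.115 and -0.055 with a highest mean of 0.46, and for *neur* -0.05 and 0.08 with a highest mean of 0.25. Each member thus lay above all of these neighbours. The members were chosen among high ratios, so this and their ranks within blocks were nearly fixed by the choice, and nothing is read from them. The feature directly before *sca*, at a repeated position, had the opposite sign, with -5.84 on array 1 and -2.59 on array 2. Whether this neighbour bears on the value of *sca* was not tested, and the place of features on the slide is not given in the sources used here. Within their blocks, *sca* ranked 1 of 651 measured features, *mira* 1 of 656 and *neur* 3 of 656. At the same position in the other 23 blocks the mean log2 ratio was at most 1.11 for *sca*, 0.36 for *mira* and 0.33 for *neur*, so none of the 3 values recurs with the block.

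**Figure D4:**
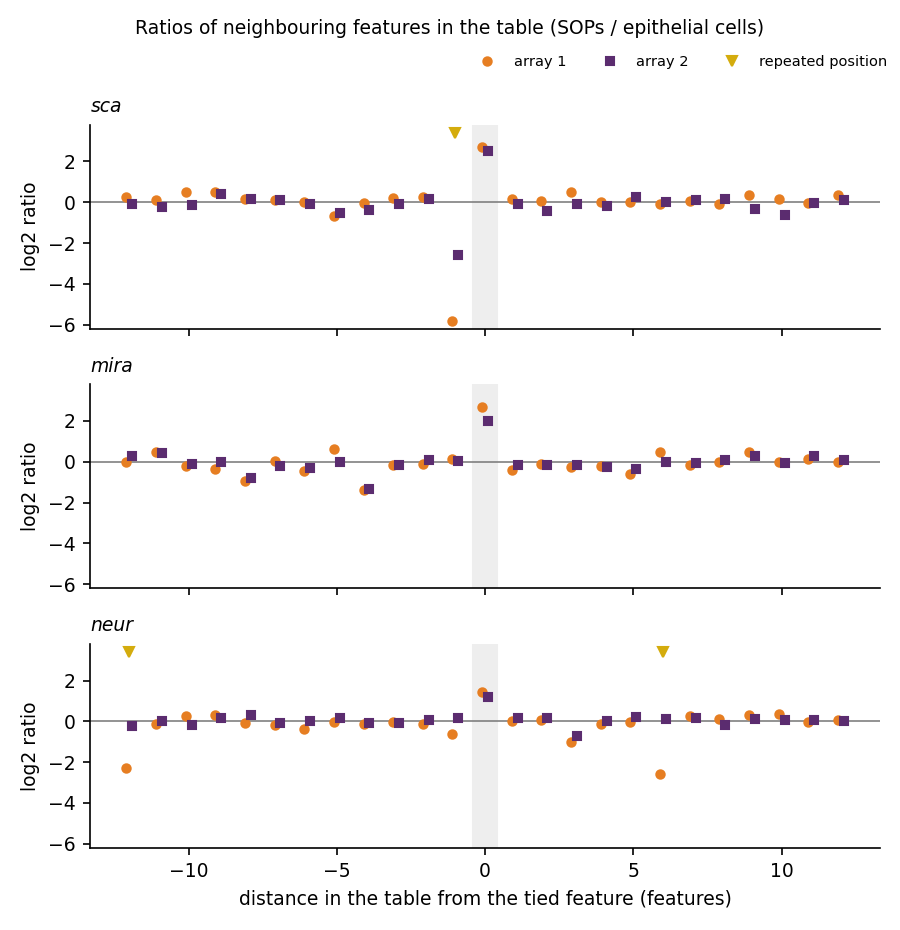
Log2 ratios on array 1 (circles) and array 2 (squares) of the features up to 12 places before and after *sca*, *mira* and *neur* in the table (horizontal axis, in features), with triangles at repeated positions. In each panel the tied feature at 0 is the highest, and the feature next to *sca* falls to -5.84 on array 1.

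The features most like each member were sought by their distance in the plane of both arrays, over 2 arrays and in log2 units. For *neur* they were features 10669 (1.43 on array 1 and 1.27 on array 2, distance 0.0854), 4178 (1.5 and 1.28, distance 0.0985) and 4302 (1.48 and 1.29, distance 0.102). *neur* thus lay among several features of nearly equal ratios. For *mira* they were 4669, the feature with the ratio of *vvl* (distance 0.0721), 8165 (distance 0.177) and 9677 (2.98 and 1.95, distance 0.286). *sca* stood more apart, with 13844 (2.94 and 2.43, distance 0.25), 5814 (2.42 and 2.69, distance 0.338) and the feature of *mira* itself (distance 0.49). The annotation names none of these features.

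A list of 81 genes of Notch signalling, SOP selection and asymmetric division was drawn up with these results known. It covers the receptor and its ligands, their cleavage and endocytosis, the Bearded family inhibitors of *neur*, the *Enhancer of split* repressors, the polarity and spindle orientation proteins, and the cargoes of *mira*. Of the 78 genes other than the members, 0 have an annotated feature. The receptor, the Bearded family, *numb* and *pros* were therefore not analysed here, and no count of tested genes can be given. The study itself reports that *Enhancer of split* and Bearded family genes were similar in both samples or lower in SOPs. With limma on all features, 0 features passed an adjusted p under 0.05 in either direction (0% of 15729, Benjamini-Hochberg), while 1172 higher and 1041 lower features had an unadjusted p under 0.05. This count depended on the setting, with 478 higher and 387 lower features called with robust moderation, 375 and 385 once both arrays had been given the same MAD, and 119 and 90 without the repeated positions.

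Of the list, 4 further genes could be approached by their listed ratio, each held by several features outside the repeated positions. They too come from genes chosen on these arrays for a ratio of 2 or more, so their direction is no independent evidence. *phyl*, which brings the repressor Tramtrack to degradation in SOPs, has 2 such features, with log2 ratios of 1.64 to 1.82 on array 1 and 1.43 to 1.63 on array 2. Another feature with its ratio, at a repeated position, had 2.04 and 1.07. Whichever of the first 2 is *phyl*, its ratio lay above *neur* and below *mira* on each array. *insv*, a nuclear co-repressor that works with Su(H), has 2, with 0.96 to 1.41 and 0.74 to 1.25. *cno*, a junction protein that modulates Notch signalling, has 5, with 1.22 to 1.62 on array 1 and 0.27 to 0.96 on array 2, so all of them lay below *neur* on array 2. *cnn*, a core protein of the centrosome, has 4, with array 1 values from -1.22 to 2.05 and array 2 values from 0.29 to 2.30, too wide apart to place the gene.

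On the arrays, the labels of the cells could be checked here against annotated markers only in small part. The study's own check was the quantitative RT-PCR of *sens* and *gfp* named above. Of 9 SOP markers none has an annotated feature, and *neur* and *sca* are among them. Of 14 muscle markers 2 are annotated. *Mlc1*, a myosin light chain, had log2 ratios of -0.26 and -0.24, and *up*, a troponin T, had 0.27 and -0.52. Of 8 epithelial markers only *p120ctn*, an adherens junction protein, is annotated, with 0.01 and -0.32. Of the markers of fat body (3), haemocytes (3) and trachea (2) none is. The part of other cell types in the ratios of *sca*, *mira* and *neur* was not tested.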

How the data were processed

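The deposited table gives log2 ratios to 2 decimals. According to the methods, the authors ran limma (its version is not given in the sources used here) with a lowess normalization of every array on its own, without background correction, and set flagged spots and controls aside. Direction and further centring are not stated in the table. The direction, SOPs over epithelial cells, was taken from the listed ratios. The dye-swapped columns correlated positively (Pearson's r = 0.54, Spearman's rho = 0.35 across 15729 features, which are not independent replicates). This correlation shows only that both columns are turned the same way, not which way. The medians were -0.01 and 0. Signal over background is unknown, since no scanner intensities were used here, and precision is limited by the number of arrays.

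Both arrays form 1 group. Features without a value on array 1 (8) or array 2 (7) were not analysed. The log2 ratios of both arrays were averaged for each feature. The members and lists were chosen with earlier results of these data known. Named genes were the members, genes of the pathway list with an annotated feature or a listed ratio, and the 3 features nearest to each member. Repeated positions were those whose median over the blocks exceeded 0.5 in size (log2) on at least one array. A fit of all features with the mean as the only term was made in limma 3.58.1 (R 4.3.3). The method was tried on simulated data whose spread was that outside the repeated positions, so the trial does not cover the fit with them. All remaining steps ran in Python 3.11.15 (pandas 2.3.3, numpy 2.4.6). Alternatives were the arithmetic mean, centred or scaled arrays, centred blocks, each array alone, features with 1 value, other thresholds, robust moderation, and leaving out the repeated positions. A planned search for promoter motifs was not run, since no promoter sequences were used here.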

Additional observations from a re-analysis of the deposited data

How the results depend on the processing

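The mean log2 ratios of *sca*, *mira* and *neur* moved by less than the SD of their arrays with centred arrays, scaled arrays and centred blocks. With the arithmetic mean and on single arrays, a shift below the SD is fixed by construction with 2 arrays, so nothing is read from it. On single arrays the log2 ratios were 2.50 to 2.70 for *sca*, 2.01 to 2.70 for *mira* and 1.19 to 1.46 for *neur*. Ranks depended more on the summary: with the arithmetic mean of the linear ratios *sca* had rank 30, *mira* rank 35 and *neur* rank 88. With scaled arrays *mira* had rank 28, and without the repeated positions *neur* had rank 45. On single arrays the ranks were 9 to 29 for *sca*, 9 to 36 for *mira* and 77 to 85 for *neur*. Features with a ratio of 2 or more, 155 by the mean, numbered 70 with the criterion on each array, 542 at a ratio of 1.5, 49 at a ratio of 3 and 117 to 223 on single arrays. Those with 0.5 or less, 267 by the mean, numbered 169 with the arithmetic mean, 124 with the criterion on each array, 73 without the repeated positions and 168 to 325 on single arrays. limma called 0 features as deposited and with centred arrays, but 478 higher and 387 lower with robust moderation, 375 and 385 with scaled arrays, and 119 and 90 without the repeated positions. The cause was not tested. SOPs and epithelial cells share each array, so the ratios are already paired within arrays. No further replicate block could be fitted with 1 group of 2 ratios.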
